A study of Mus musculus with 2 samples.

Results

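Cxcl9-positive interferon-activated fibroblasts were taken as barcodes without a UMI of the leukocyte gene Ptprc that held at least 1 UMI of the chemokine gene Cxcl9, at least 1 UMI over the 4 companion genes Ubd, Gbp4, Ifi47 and Serpina3g, and at least 1 UMI of Col1a1 or Col3a1. A UMI (unique molecular identifier) marks a single captured transcript. Barcodes, each standing for a cell, were kept with at least 1000 UMIs, 500 genes and at most 10% mitochondrial UMIs. In the library labelled ff, 149 of 12702 kept barcodes met the rule (1.17%, exact 95% interval 0.993 to 1.38). In the library labelled GF, 244 of 15066 did so (1.62%, 1.42 to 1.83). Members were selected on the UMIs of Cxcl9, the companion genes, Ptprc and the collagen genes, so the values of these genes describe the choice and are given without a test.

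The study profiled gp38-positive mesenchymal cells of the mouse large intestine, sorted without leukocytes (CD45), epithelium (EpCAM) or endothelium (CD31), by droplet single-cell RNA sequencing. The ff library came from C57BL/6 mice and the GF library from Balb/c mice, with adult animals over 8 weeks and germ-free animals named in the design. What ff stands for is not spelled out in the labels, and germ-free status rests on the title GF. With 1 library for each, strain, housing and library cannot be told apart, no difference was tested against replicates, and every interval covers counting error alone.

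Interferon-gamma, made by T cells and innate lymphocytes, acts through its receptor and JAK kinases on genes with GAS elements, IRF1 among them. The targets include guanylate-binding proteins (GBPs) and immunity-related GTPases (IRGs), which act on intracellular pathogens, and the machinery that loads peptides on MHC class I. CXCL9, CXCL10 and CXCL11 attract T cells that carry CXCR3, and fibroblasts are among the cells that can make them. ISRE elements answer to interferons and to IRF factors.

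Promoters of 5 genes are shown because they belong to the gene that defines the cells, its neighbouring chemokine gene, a companion gene and GTPases with both elements. Each is the 250 bases before the RefSeq start on GRCm38.p6, written 5′ to 3′ on the gene's strand, with GAS (TTCNNNGAA, which reads alike on both strands) and the ISRE core (GAAA and again GAAA with any 2 bases between, on either strand) in capitals. The windows were chr5:92328080-92328329 (minus) for Cxcl9, chr5:92348890-92349139 (minus) for Cxcl10, chr12:104235897-104236146 (plus) for Serpina3g, chr3:142496684-142496933 (plus) for Gbp5 and chr11:58199306-58199555 (plus) for Igtp.
Cxcl9: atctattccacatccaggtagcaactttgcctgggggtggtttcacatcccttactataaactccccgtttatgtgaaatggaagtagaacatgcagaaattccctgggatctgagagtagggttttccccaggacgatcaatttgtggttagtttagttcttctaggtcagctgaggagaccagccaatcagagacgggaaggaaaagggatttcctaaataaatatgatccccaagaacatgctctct
Cxcl10: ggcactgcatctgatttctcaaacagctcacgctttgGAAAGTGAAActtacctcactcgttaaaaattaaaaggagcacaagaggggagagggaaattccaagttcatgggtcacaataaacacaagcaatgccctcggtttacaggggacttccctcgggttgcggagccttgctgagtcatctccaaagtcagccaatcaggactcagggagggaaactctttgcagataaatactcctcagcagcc
Serpina3g: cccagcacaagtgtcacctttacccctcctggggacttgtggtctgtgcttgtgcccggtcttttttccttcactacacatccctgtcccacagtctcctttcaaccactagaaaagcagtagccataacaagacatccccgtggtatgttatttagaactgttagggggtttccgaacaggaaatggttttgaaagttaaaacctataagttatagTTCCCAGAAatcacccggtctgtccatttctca
Gbp5: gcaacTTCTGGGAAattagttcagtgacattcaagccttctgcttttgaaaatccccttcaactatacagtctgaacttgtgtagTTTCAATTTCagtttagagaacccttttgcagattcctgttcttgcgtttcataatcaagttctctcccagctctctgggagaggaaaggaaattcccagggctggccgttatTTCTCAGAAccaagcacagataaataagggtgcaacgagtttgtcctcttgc
Igtp: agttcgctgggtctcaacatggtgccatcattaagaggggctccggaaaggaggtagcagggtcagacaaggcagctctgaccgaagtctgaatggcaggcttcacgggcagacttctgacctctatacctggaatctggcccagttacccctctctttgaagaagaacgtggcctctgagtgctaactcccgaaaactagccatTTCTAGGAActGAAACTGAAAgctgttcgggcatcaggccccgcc
The Cxcl9 window held neither set of letters, which says only that they are not in these 250 bases. Cxcl10 had an ISRE core from -213 to -204 counted from the start, and Serpina3g had a GAS from -33 to -25. Gbp5 had GAS matches beginning at -245 and -52 with an ISRE core at -165, and in Igtp a GAS at -45 stood just before an ISRE core at -34, without overlap. Of 32851 promoters of this length, 7.02% held a GAS and 2.98% an ISRE core. Of the 17 GTPase genes of the interferon-gamma list, 11 had a promoter entry, of which 6 held a GAS and 10 an ISRE core. Cxcl9 and its companion genes had 4 with an entry, of which 1 held a GAS and 0 an ISRE core. Among the 12 named higher genes, 6 had an entry, of which 3 held a GAS and 4 an ISRE core.

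Cxcl9 was spread unevenly over the members. Members held 2351 Cxcl9 UMIs in ff, or 1377 CPM (UMIs scaled to the same total in each group, 95% Poisson interval 1322 to 1434), and 3945 in GF, or 1696 CPM (1644 to 1750). The other collagen-positive, Ptprc-negative barcodes, which are the reference below (12349 in ff and 13254 in GF), stood at 4.71 and 4.28 CPM. A member had a median of 4 Cxcl9 UMIs in ff and 3 in GF, with a highest count of 358 and 383. Members with at least 20 UMIs were 19 in ff (12.8%) and 36 in GF (14.8%), and they held 72.9% and 80.5% of the members' Cxcl9. The level of the group was therefore set by few cells, and in ff the 10 highest members held 60.4%. At the other end, 32 members in ff (21.5%) and 59 in GF (24.2%) had 1 UMI.

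**Figure D1:**
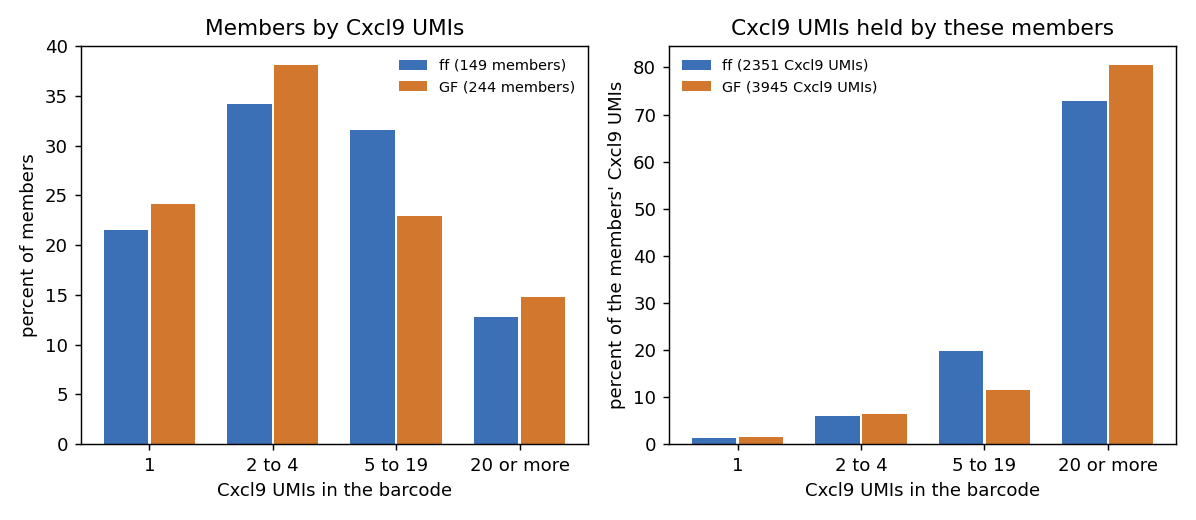
Left, the percent of members by their number of Cxcl9 UMIs; right, the percent of the members' Cxcl9 UMIs held by each of these groups, with bars for ff (149 members) and GF (244 members). Members with at least 20 UMIs are 12.8% and 14.8% of the members and hold 72.9% and 80.5% of the UMIs.

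The edge of the rule was broad. Exactly 1 Cxcl9 UMI and 1 companion UMI admitted 15 members in ff (10.1%) and 24 in GF (9.84%). Just outside, 128 ff and 164 GF barcodes of the collagen-positive set had Cxcl9 without a companion, and 2875 and 2367 had a companion without Cxcl9. Cxcl9 in free RNA was low by the cells that should lack it: of Cd79a-positive, collagen-free barcodes, 0 of 30 in ff had a Cxcl9 UMI, which allows up to 11.6%, and 1 of 515 in GF did (0.194%). Those barcodes were shallower, with median depths of 3267 and 2381 UMIs against 10859 and 8769 in members. Members were also deeper than the reference, at 8979 and 6702 UMIs. After thinning every barcode to 2000 UMIs, 48 of 12461 in ff (0.385%) and 90 of 14439 in GF (0.623%) met the rule, leaving out 241 and 627 shallower barcodes.

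The companion genes were detected in different shares of the members. Serpina3g, which encodes a serine protease inhibitor of immune cells, was found in 103 ff members (69.1%) and 113 GF members (46.3%), at 237 and 184 CPM against 30.3 and 14.1 in the reference. Ifi47, an IRG, was found in 87 (58.4%) and 151 (61.9%), at 141 and 176 CPM against 16.7 and 20.2. Gbp4 was found in 38 (25.5%) and 94 (38.5%), at 59.7 and 273 CPM against 3.45 and 11.7. Ubd, which encodes the ubiquitin-like FAT10, was found in 14 (9.40%) and 46 (18.9%), at 25.2 and 93.3 CPM against 0.313 and 1.26. Most members thus carried a part of the set: 90 in ff (60.4%) and 137 in GF (56.1%) had 1 of the 4 genes, and 9 and 13 had all of them. On the C57BL/6 reference (GENCODE vM21), Cxcl9 lies at chr5:92321347-92328079, Gbp4 at chr5:105115767-105139586, Ifi47 at chr11:49076587-49096974, Serpina3g at chr12:104236245-104241939 and Ubd at chr17:37193892-37196095.

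The fibroblast label was met by genes the rule did not use. Dcn, the collagen-binding proteoglycan decorin, stood at 9707 CPM in ff and 10595 in GF members, against 12194 and 13037 in the reference. Pdgfra, a receptor of fibroblasts, stood at 414 and 408 CPM against 530 and 448, and Pdpn, which encodes the gp38 of the sort, at 319 and 392 against 269 and 329. None of 5 fibroblast markers differed by 2-fold from the reference in either library. Macrophage markers summed to 21.67 CPM in ff and 19.35 in GF members against 20.04 and 22.87 in the reference, with Adgre1 and Itgax at 0 in both. T cell and innate lymphoid markers summed to 1.76 and 2.58 CPM against 1.19 and 6.82, and epithelial markers to 1.17 and 0.430 against 13.5 and 0.851. Endothelial markers were at 21.1 and 18.1 against 27.6 and 19.7, and B and plasma cell markers at 9.37 and 24.5 against 89.2 and 48.5. The last sum was mostly Jchain in the reference (87.1 and 41.8 CPM), whereas the B cell gene Cd79a stood at 15.5 CPM in GF members against 4.37, and Ms4a1 at 3.44 against 0.894. Their part in the results was not tested. Scrublet marked 9 ff members (6.04%) and 15 GF members (6.15%) as doublets, against 4.19% and 4.44% of the reference.

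Most genes stood near the same level in members and reference, and the named genes with the largest ratios were mostly interferon targets and chemokines. A gene was counted when its log2 ratio of CPM, with 1 CPM added to each, passed a 2-fold difference at a mean of at least 10 CPM. In ff, 94 of 8463 genes were at least 2-fold higher (1.11%) and 95 lower (1.12%). In GF, 147 of 8588 were higher (1.71%) and 157 lower (1.83%). Of the 8146 genes measured in both, 61 were higher in both, 63 were lower in both and 0 were opposite. The shared higher genes were 64.9% of the ff set and 41.5% of the GF set. The rule used genes of the same cells, so nothing is read from these shares beyond their description.

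Nearly all measured GTPases were higher in members. In ff all 12 measured genes of the list passed 2-fold, with a median log2 ratio of 2.42 against 0.01 over all genes measured. In GF 13 of 14 did, with a median of 2.38 against 0.04. Gbp2, a GBP that coats pathogen vacuoles, stood at 308 CPM in ff members against 53.7 (log2 2.50) and at 240 in GF members against 54.0 (2.14). Iigp1, the IRG that attacks parasite vacuoles, was the most abundant, at 867 against 145 (2.57) and 953 against 143 CPM (2.73). Igtp, the IRG also called Irgm3, stood at 114 against 20.9 and 92.0 against 15.1 CPM. Gbp5, a GBP that promotes inflammasome assembly, reached 73.8 against 9.50 (2.83) and 90.3 against 8.07 CPM (3.33). Gbp6 was at 127 against 21.0 and 132 against 14.3 CPM, and Gbp8 and Gbp9 had ratios between 2.39 and 2.49. Irgm1, a regulator of the other IRGs, had smaller ratios of 1.33 and 1.39. The promoters of Gbp5 and Igtp printed above hold both elements. GBP and IRG genes have near-identical copies, so the split of reads among them is uncertain.

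**Figure D2:**
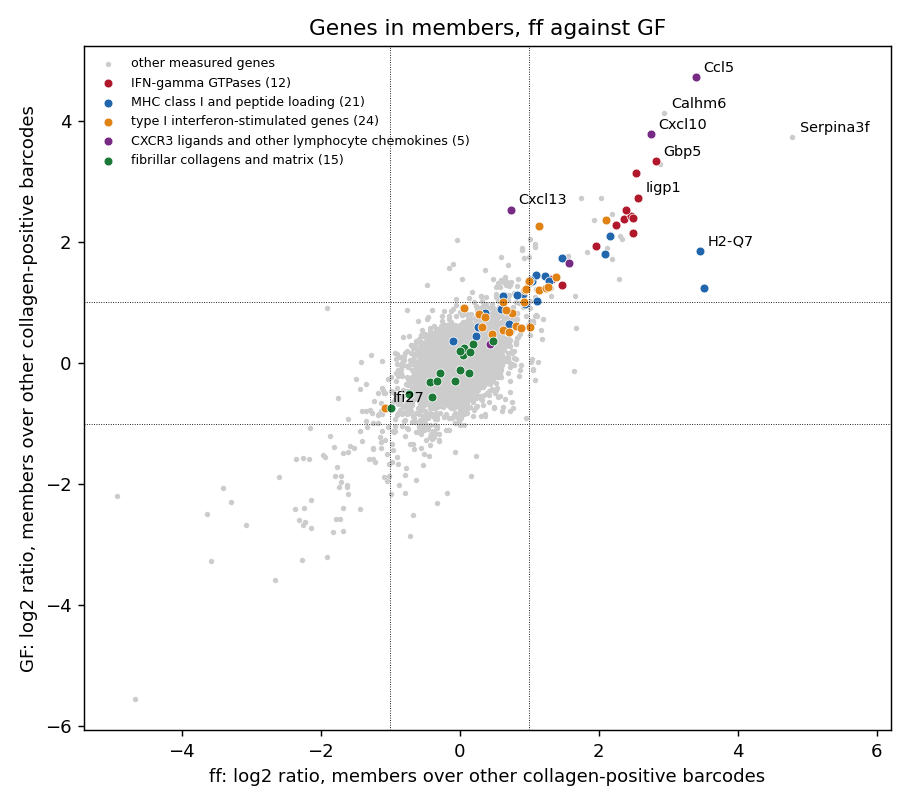
Log2 ratio of members over other collagen-positive barcodes in ff (x axis) and GF (y axis), 1 point per gene with 1 CPM added, with the genes of some lists in colour. The GTPase genes lie in the upper right, as Gbp5 does at 2.83 and 3.33, and no gene at least 2-fold higher in 1 library was at least 2-fold lower in the other.

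The GTPases were also found cell by cell. At 2000 UMIs per barcode, ff members had a median of 2 of the 17 GTPase genes and the reference 0, with means of 2.19 and 0.580. In GF the medians were also 2 and 0, with means of 2.36 and 0.609. No GTPase gene was found in 45 ff members (30.2%) and 58 GF members (24.1% of those deep enough) at that depth, against 60.5% and 59.9% of the reference. Without thinning, medians were 4 in members and 1 in the reference of each library. Iigp1 was found in 64.4% of ff members and 67.2% of GF members, with a median of 3.73 and 4.16 UMIs per 10000 and a highest value of 82.7 and 60.5. Gbp2 was found in 55.0% and 52.9%, against 28.3% and 24.1% of the reference. Detection and level therefore varied among the members. A gene can be missed at 2000 UMIs for lack of depth, so the zeros at that depth do not place a member at the reference level.

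Signalling genes had lower ratios than the GTPases, with list medians of 0.40 in ff and 0.52 in GF. Irf1, an early target that drives later ones, was already abundant in the reference, at 635 against 521 (0.29) and 655 against 461 CPM (0.51). Batf2, an interferon-induced transcription factor, had ratios of 1.93 and 2.36. In the ff library 2 of 18 receptor and signalling genes passed 2-fold upwards and in GF 4 of 18, with the receptor chain Ifngr2 (1.05) and Irf8 (1.27) among those of GF. The ligand-binding chain Ifngr1 was at 272 against 178 and 269 against 181 CPM, Jak2 at 0.07 and 0.32 on the log2 scale, and the feedback inhibitor Socs1 at 0.44 and 0.37. No UMI of the listed interferon genes was found in the members, where 3 counts would be 1.76 CPM in ff and 1.29 in GF.

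Class I antigen presentation genes were higher for peptide supply and for the presenting chains. In ff 11 of 21 measured genes passed 2-fold (median log2 1.02), and in GF 14 of 21 (1.14). Psmb9, an immunoproteasome subunit, stood at 122 against 27.9 (2.09) and 175 against 49.6 CPM (1.80). Tap1, a chain of the peptide transporter, stood at 110 against 23.8 and 116 against 26.4 CPM. B2m, the light chain, stood at 1697 against 825 (1.04) and 2028 against 792 (1.36), and the heavy chain H2-K1 at 1093 against 510 (1.10) and 1735 against 634 (1.45). H2-K1 was found in nearly all members, with a median of 8.01 UMIs per 10000 in ff and 14.5 in GF. Ratios were not alike along the route: Tap2, the other transporter chain, had 0.82 and 1.12, the proteasome activator Psme2 0.63 and 1.10, and the heavy chain H2-D1 0.94 and 0.97. The class Ib gene H2-Q7 was at 134 against 11.2 (3.46) in ff and 71.4 against 19.1 CPM (1.85) in GF. Class I genes are polymorphic between strains and close copies of each other, so values of single heavy chains are uncertain.

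Class II genes were low, and Cd74 and H2-Aa in GF rested on few members. In ff, 0 of 2 measured genes were at least 2-fold higher, and Cd74, the invariant chain, stood at 10.5 CPM against 11.8. In GF, 4 of 4 were higher (median 1.51), and Cd74 stood at 82.6 CPM against 27.1 (log2 1.57). Of the 192 Cd74 UMIs in GF members, 124 lay in 4 members of a cluster led by Cd74, H2-Aa and the B cell gene Cd79a. Without that cluster, Cd74 stood at 29.96 CPM (23.26 to 37.98) in 240 GF members against 8.04 in the reference, and at 10.5 (6.25 to 16.7) against 5.70 in ff. H2-Ab1, a class II beta chain, was spread more widely, over 70 GF members (28.7%), and without that cluster stood at 40.97 against 17.8 CPM. UMIs of B cell markers were found in 4 ff members (2.68%) and 9 GF members (3.69%), against 1.07% and 1.47% of the reference. Their part in the class II values of the remaining members was not tested.

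Chemokines that attract lymphocytes were higher in part, and the counts of the libraries do not cover the same genes. In ff, 3 of 6 measured were at least 2-fold higher and 1, Ccl21a, lower (median log2 1.16). In GF, 6 of 7 were higher (2.53, or 1.67 with the reference weighted to the clusters of the members). Ccl19 was higher in both libraries but reached the mean of 10 CPM only in GF. Ccl21a was lower in both (0 against 21.7 CPM in ff and 0.860 against 13.8 in GF) but reached that mean only in ff. Cxcl10, the neighbour of Cxcl9 on chromosome 5, stood at 1729 CPM in ff members (1667 to 1792) against 256, and at 1407 in GF members (1360 to 1457) against 102. It was found in 121 ff members (81.2%) and 173 GF members (70.9%), with a median of 9.57 and 4.45 UMIs per 10000 and a highest value of 226 and 203. Most of it lay outside the members, which held 9.03% of all kept Cxcl10 UMIs in ff and 24.8% in GF. Cxcl16, the ligand of CXCR6, had ratios of 1.57 and 1.65. Ccl5, a chemokine for T cells, had high ratios (3.40 and 4.72), but its 41 and 107 UMIs came from 6 and 15 members. Ccl19, a CCR7 ligand of lymphoid stroma, stood at 10.5 against 1.37 and 18.9 against 1.80 CPM. Cxcl13, which attracts B cells through CXCR5, stood at 122 against 72.3 (0.74) in ff and 1235 against 212 CPM (2.53) in GF, where 52.5% of members had a UMI of it against 19.5% in ff. Among chemokines for monocytes and neutrophils, 2 of 11 were higher in ff (Ccl8 and Cxcl5) and 4 of 11 in GF, where Ccl7 was lower. Ccl8 had ratios of 2.29 and 1.39.

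Other interferon and inflammatory genes were higher in part. Of the list of genes known from type I interferon, 9 of 27 in ff (median 0.83) and 9 of 24 in GF (0.89) passed 2-fold upwards. Isg15, a ubiquitin-like modifier, had ratios of 1.25 and 1.23, and Zbp1, a sensor of nucleic acids, 2.10 and 2.36. Ifi27 was lower in ff (-1.07). Vcam1, an adhesion molecule for leukocytes, stood at 372 against 175 (1.08) and 527 against 135 CPM (1.96), and it was the only 1 of 18 NF-kB targets at least 2-fold higher in ff, against 3 of 17 in GF. Il6, an inflammatory cytokine of that list, stood at 232 against 234 and 151 against 267 CPM. The checkpoint ligand Cd274, which encodes PD-L1, stood at 20.5 against 5.03 and 20.2 against 4.98 CPM, a log2 ratio of 1.83 in each. Mlkl, which carries out necroptosis, had ratios of 1.32 and 1.23. Serpina3f, an inhibitor close to Serpina3g, stood at 44.5 against 0.644 and 26.7 against 1.09 CPM, and members held 49.7% and 36.3% of its kept UMIs. Only 22 ff members (14.8%) and 27 GF members (11.1%) had a UMI of Serpina3f, and 10 members held 82.9% and 69.4% of the members' UMIs. Calhm6, a channel protein known from activated macrophages, stood at 22.3 against 2.04 (2.94) and 39.6 against 1.34 CPM (4.12). It was found in 17 ff and 31 GF members, and 10 members held 81.6% and 72.8% of the members' UMIs. Apol6, of the apolipoprotein L family, had ratios of 2.88 and 3.28. In the complement list 1 gene was at least 2-fold higher in each library, C2 (1.10 and 1.22). Heat shock and dissociation genes had 0 of 13 past 2-fold in either library.

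Iigp1, Gbp2 and Cxcl10 were ordered by the Cxcl9 count of the member, in groups drawn after the counts had been seen. In ff, Iigp1 stood at 492 CPM in members with 1 Cxcl9 UMI, 703 with 2 to 4 and 1169 with at least 5. In GF it stood at 654, 720 and 1355 CPM. Gbp2 went from 121 through 254 to 439 CPM in ff and from 117 through 160 to 393 in GF, and Cxcl10 from 856 through 1415 to 2384 and from 474 through 811 to 2544. Barcodes with a companion but no Cxcl9 stood at 271 CPM of Iigp1 in ff and 324 in GF, and those with neither at 98.4 and 91.9. At the edge the groups crossed: nonmembers with at least 2 companion UMIs and no Cxcl9 stood at 437 and 498 CPM, above the 374 and 392 of members with 1 Cxcl9 and 1 companion UMI. Irf1 had no such order, at 568, 748 and 593 CPM in ff and 617, 669 and 665 in GF. Isg15 had its highest level in the top group, at 159 and 200 CPM.

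**Figure D3:**
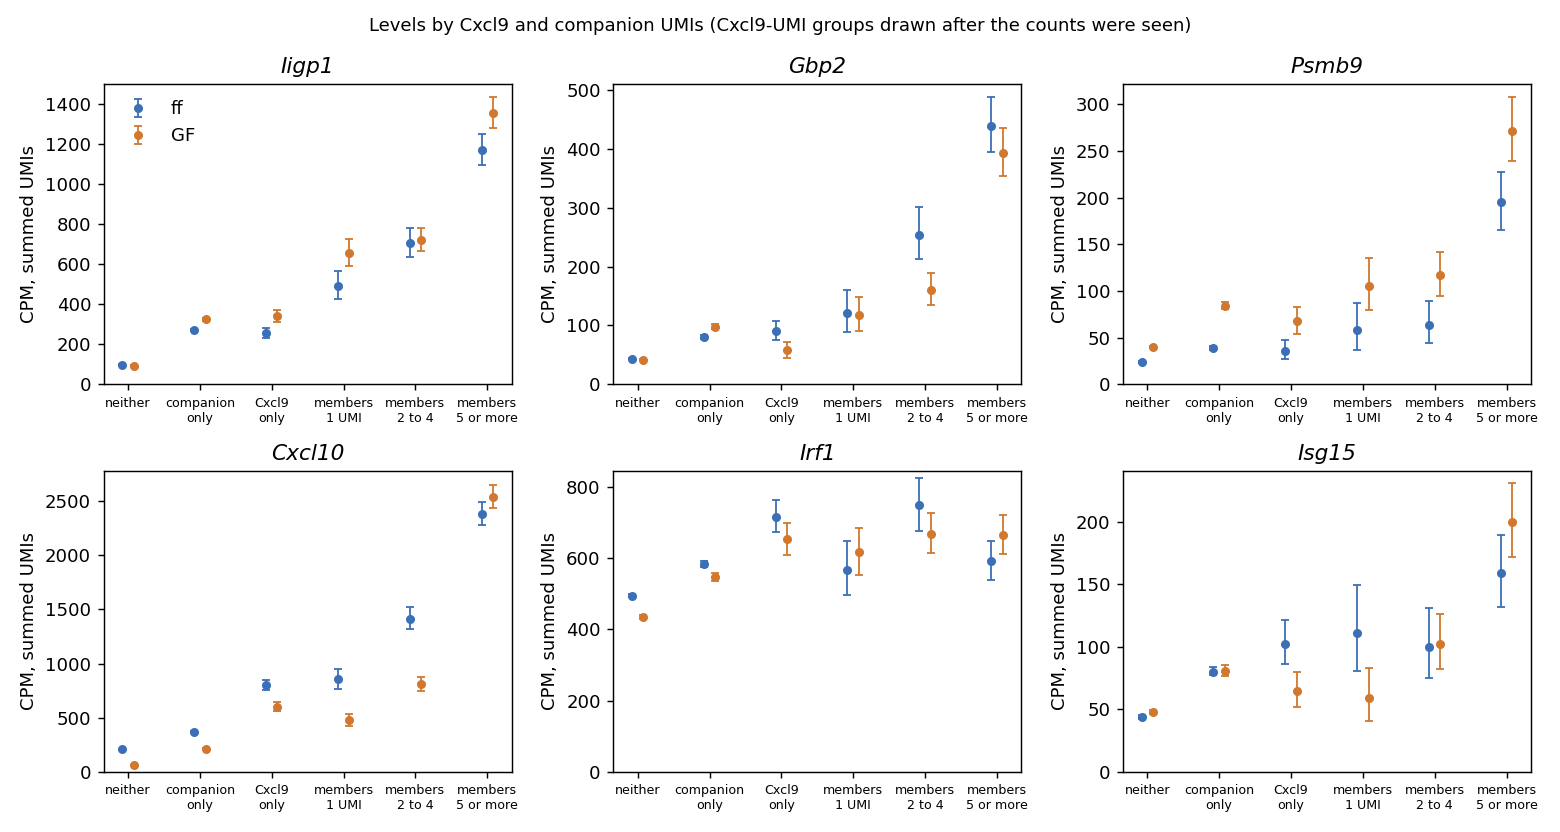
CPM of interferon genes (linear axes, with 95% Poisson intervals) in barcodes with neither Cxcl9 nor a companion, a companion alone, Cxcl9 alone, and members with 1, 2 to 4 and at least 5 Cxcl9 UMIs, for ff and GF. Iigp1 in ff goes from 98.4 CPM with neither to 1169 in the highest group, while Irf1 lies between 495 and 748.

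Members were gathered in a few clusters and nearly missing from others. Clusters were built without the genes of the rule and the listed interferon, antigen presentation, chemokine, complement, NF-kB and cell death genes. Cxcl13 was among those left out, so it did not shape the cluster it leads. Interferon targets outside the lists could remain. In ff, 46 of 1433 barcodes (3.21%) of the cluster led by Cd36, Lef1 and Prdm1 were members, 40 of 827 (4.84%) of that led by Col6a5 and Adamdec1, and 24 of 2095 (1.15%) of that led by Cxcl13 and Sfrp2. In GF, the Cxcl13 cluster held the most, 105 of 2772 (3.79%), followed by the Cd36 cluster with 49 of 1204 (4.07%), while the Col6a5 cluster had 11 of 1105 (0.995%). The Wif1 and Sox6 cluster had 6 of 1471 (0.408%) in ff and 19 of 736 (2.58%) in GF. A smaller and deeper cluster led by the same genes had 8 of 228 in ff (3.51%) and 3 of 117 in GF (2.56%). The intervals, 1.53 to 6.80 and 0.532 to 7.31, overlapped. After thinning to 2000 UMIs, this smaller cluster had 0.439% in ff and 0.855% in GF, with 1 member in each. The larger Wif1 and Sox6 cluster then had 0.204% and 0.547%, and that led by Fgfbp1, Wif1 and Sox6 had 0% and 0.592%. At that depth the GF share was thus higher in these clusters, on few members. No member lay in the cluster led by Angptl1 and Ackr4 (0 of 1003 and 0 of 720) or in that led by Efhd1, Cmah and Dpp4 (0 of 491 and 0 of 978). The Pi16 cluster had 1 member in each library, while a small, deep cluster led by Sfrp4 and Ptx3, with Pi16 among its genes, had 4 of 204 (1.96%) and 10 of 296 (3.38%). At 2000 UMIs the ff shares were 0.559% in the Cd36 cluster, 1.74% in the Col6a5 cluster and 0.580% in the Cxcl13 cluster, and the GF shares were 0.920%, 0.192% and 1.76%. The Col6a5 cluster thus had the higher share in ff and the Cxcl13 cluster in GF at both depths. In each cluster with at least 10 members, Gbp2, Igtp, Psmb9, H2-K1 and Cxcl10 stood higher in members than in the rest of that cluster. There were exceptions among the other genes compared. Psmb8 was lower in the GF Col6a5 cluster (-0.18) and Tap1 in the GF Sfrp4 cluster (-0.20). Irf1 was lower in the GF Sfrp4 and Wif1 clusters (-0.08 and -0.13), and Cd74 in several clusters. The intervals of these Psmb8, Tap1 and Irf1 values took in the rest of the cluster, as for Psmb8 at 60.6 CPM (19.7 to 141) against 68.7. So did that of Gbp2 in the GF Sfrp4 cluster, at 81.0 CPM (40.5 to 145) against 48.2. The size varied: in ff, Gbp2 stood at 808 CPM in members of the Cxcl13 cluster against 55.5, at 380 against 64.2 in the Col6a5 cluster, and at 94.2 against 40.9 in the Cd36 cluster. The last held 30.9% of the ff members but 12.2% of their Cxcl9 UMIs.

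**Figure D4:**
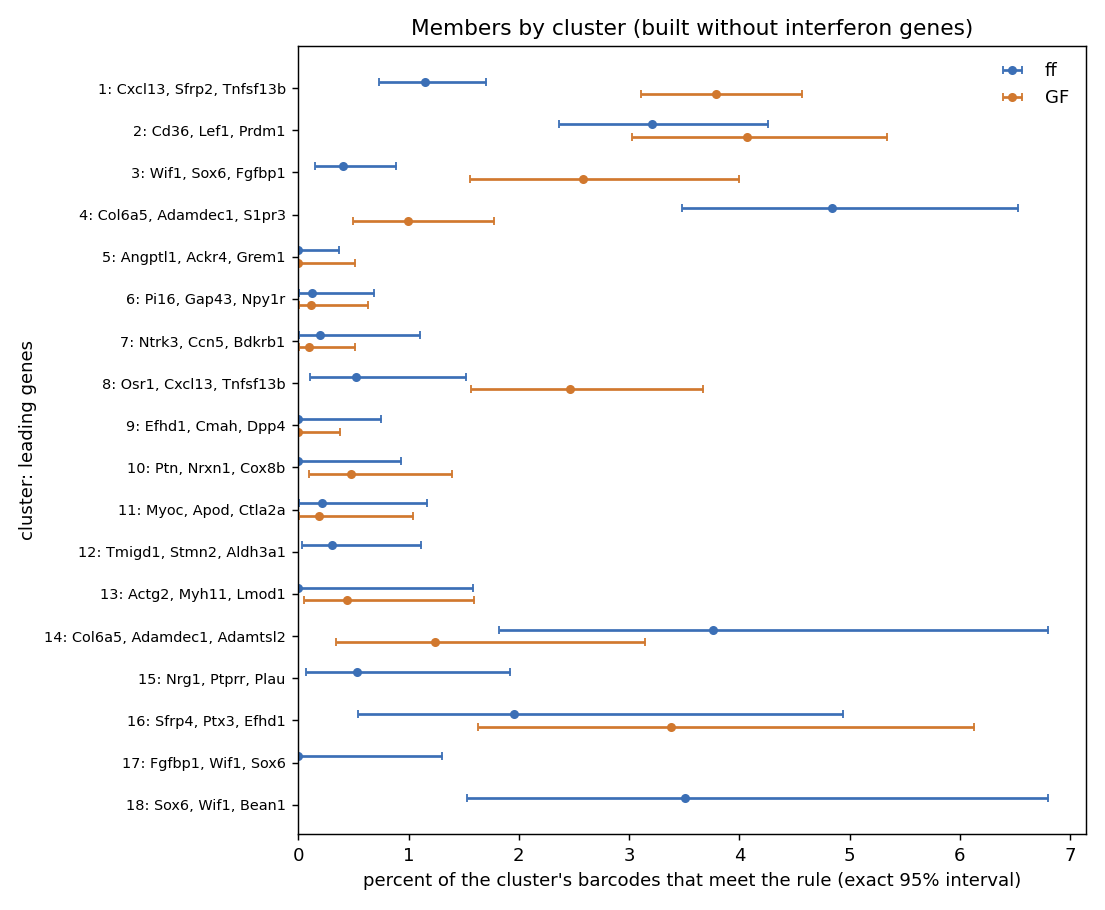
Share of barcodes that are members (percent, exact 95% intervals) in each cluster with at least 200 barcodes of a library, for ff and GF. The highest ff share is 4.84% in the Col6a5 cluster, where GF has 0.995%, and clusters led by Angptl1 and by Efhd1 have 0 in both.

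Genes of adventitial fibroblasts and smooth muscle were lower in part. Collagen and matrix genes had 0 of 15 at least 2-fold apart in either library, with medians of 0.00 and -0.16. Adventitial markers were lower for 3 of 7 in ff and 4 of 8 in GF, and smooth muscle markers for 3 of 4 and 3 of 5. Pcolce2, an enhancer of procollagen processing, stood at 47.4 against 225 and 69.2 against 431 CPM. Ackr4, a scavenger receptor for chemokines and a leading gene of a cluster with 0 members, stood at 11.1 against 57.5 and 4.73 against 54.1 CPM. Gas1, a Hedgehog co-receptor, stood at 7.03 against 83.7 and 20.2 against 88.2 CPM. Actg2, a smooth muscle actin, had 0 UMIs in ff members, so that the reference was at least 16.8-fold higher than 3 counts would be, and 10.3 against 50.9 CPM in GF. The other named lower genes, Inmt, Smoc2, Sfrp4, Tek, Aoc3, Lrrn4cl, Ptn and Ebf1, had ratios between -3.29 and -1.91. When the reference was weighted to the clusters of the members, the genes at least 2-fold lower numbered 20 in ff and 19 in GF, and the higher ones 63 and 118. With that weighting Sfrp4, Ptn and Ebf1 in ff and Gas1 and Ebf1 in GF were above the reference, by 0.05 to 0.45 on the log2 scale. Adamdec1, a protease of lamina propria fibroblasts, was at 5411 against 2543 CPM in ff but 2594 against 3161 in GF.

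Set side by side, GF and ff members differed by at least 2-fold in 192 of 8539 genes higher in GF (2.25%) and 180 lower (2.11%). The 8 named genes higher in GF and the 8 lower all had a reference difference in the same direction. Gbp2b, a GBP gene next to Gbp2, had 0 UMIs in ff members and 671 in GF members (289 CPM, at least 164-fold over 3 counts), with 0 and 43.3 CPM in the reference. Trim12a, a gene of the TRIM family, had 81 UMIs in ff members and 0 in GF, at least 36.8-fold over 3 counts. Stmn2 stood at 231 and 9.89 CPM in members and 268 and 11.5 in the reference, a log2 difference of -4.41 and -4.43. These differences were thus shared with cells outside the rule. The GF reads come from Balb/c and were counted on mm10, which is built from C57BL/6, and the part of this in single genes was not tested.

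**Figure D5:**
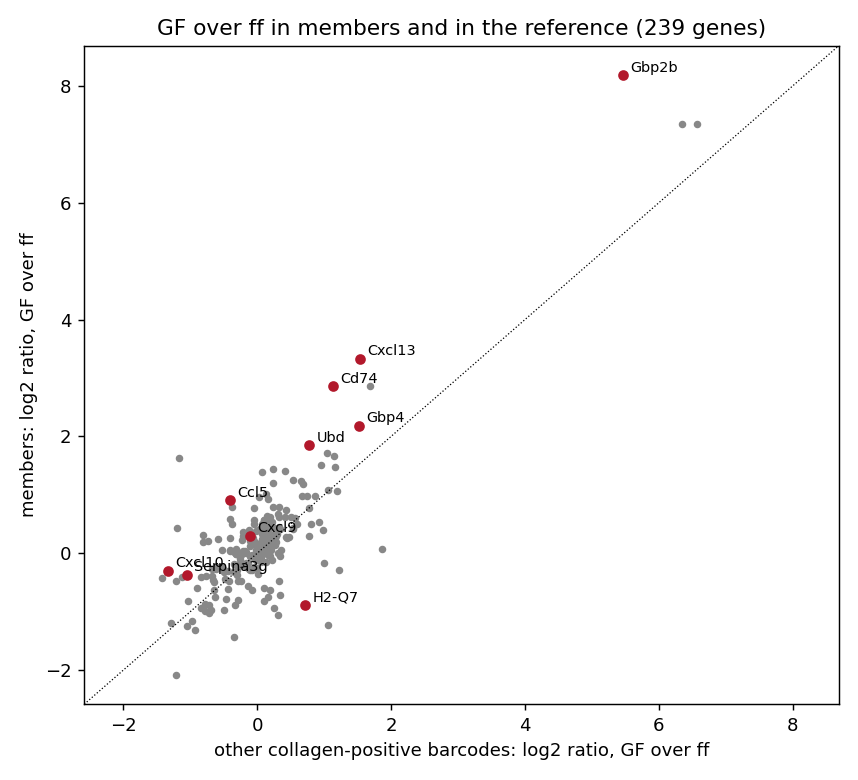
Log2 ratio of GF over ff in members (y axis) and in the other collagen-positive barcodes (x axis), 1 point per gene of the lists or of the rule with a mean of at least 10 CPM. Cxcl9 and Cxcl10 lie near 0 in members at 0.30 and -0.30, while Cxcl13 is above the diagonal at 1.54 and 3.33 and H2-Q7 below it at 0.72 and -0.89.

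Among interferon targets some differed between the members of the libraries and others little. Of 14 GTPases 2, among them Gbp2b, were at least 2-fold higher in GF members, with a list median of 0.03. Of 4 class II genes 3 were at least 2-fold higher in GF members, Cd74 (log2 2.86), H2-Aa (2.87) and H2-Ab1 (1.48). The reference was also higher in GF, by 1.14, 1.69 and 1.17. Without the cluster led by Cd74, GF and ff members stood at 29.96 and 10.54 CPM of Cd74 and 40.97 and 19.91 of H2-Ab1. H2-Eb1 was then lower in GF members, at 7.05 against 10.54 CPM. The GF over ff log2 ratio was 0.14 for Iigp1 and 0.29 for Gbp5 (-0.03 to 0.62). Of the genes that chose the members, Cxcl9 had 0.30 (0.23 to 0.38), and Gbp4 (2.18) and Ubd (1.85) were higher in GF members, and in the reference by 1.52 and 0.78. Cxcl13 was higher by 3.33 in members (3.14 to 3.55) and by 1.54 in the reference. Within the Cxcl13 cluster alone it stood at 157 CPM in 24 ff members and 2296 in 105 GF members, against 223 and 631 in the rest of that cluster. Gbp2 there was 808 CPM in ff and 275 in GF, and Cxcl10 2721 and 1898. Other clusters differed: members of the Cd36 cluster had Gbp2 at 94.2 CPM in ff and 152 in GF, and Cxcl10 at 1379 and 635. In the Col6a5 cluster, with 40 ff and 11 GF members, Gbp2 was at 380 and 327 CPM and Cxcl10 at 2655 and 2727. Gbp2b in members of the Cxcl13 cluster was at 0 and 349 CPM, and the split of reads among GBP copies is uncertain.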

How the data were processed

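Droplet libraries (10x 3′ v3.1) of sorted colon mesenchyme were deposited as matrices of UMI counts for 32285 genes, 32158 of them with a symbol. The authors made the counts with Cell Ranger 6.0.0 on mm10, per the submitters' processing notes, with a gene annotation not given in the sources used here. Members and gene lists were chosen with earlier results of these data known.

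Barcodes with at least 1000 UMIs, 500 genes and at most 10% mitochondrial UMIs were kept. UMIs were summed per library and group and divided by the group's total to give CPM. Ratios are log2 with 1 CPM added. Intervals are exact at 95% (Poisson for CPM, Clopper-Pearson for shares, conditional binomial for ratios, the last without the added CPM) and cover counting error. A gene needed a mean of 10 CPM. Members held 1707684 UMIs in ff and 2325432 in GF. Named genes were the 12 in each direction with the largest mean ratio among genes measured in both libraries with the same sign. To these came 8 in each direction between members, besides the lists and the genes of the rule. Clusters came from scanpy 1.11.5 and leidenalg 0.10.2 on 2000 variable genes, without the genes of the rule and the listed interferon and immune genes. Scrublet doublets were marked and kept. The libraries shared 55 deposited barcode sequences, of which 1 was a GF member and 0 an ff member. On simulated data, 4-fold higher genes were found for 50 of 50 in ff and 50 of 50 in GF, and 2 of 8223 and 0 of 8257 unchanged genes were called. The simulation drew Poisson counts of whole groups from the reference means, without spread among cells, clusters or selection. It therefore checks the calculation and cannot give the rate of false calls in the real data. With 1 library per group no p-value was computed. Alternatives were other filters, scalings, depths, reference sets and cluster weights, and leaving out doublets or the clusters led by Cd74. The last, and for the share of members the depth range and the collagen-positive denominator, were added after seeing the data. Cxcl11, Mx1, Mx2, Oas1b, Gbp11, Ifgga1, Ifgga3 and Serpina3h were not analysed here. Some results are not reported here.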

Additional observations from a re-analysis of the deposited data

Results flagged for a closer look

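For 8 listed genes the ratio of members over the other collagen-positive barcodes had opposite signs in the libraries with counting intervals that exclude equal levels. The difference was not tested, since each strain is 1 library. The same count over all measured genes is not given here, so the 8 are a description only. The intervals cover counting alone and are narrow for abundant genes. Only Sfrp1 and Wif1 reached 2-fold, each in ff alone. Of the 8146 genes measured in both libraries, 0 passed 2-fold in opposite directions. The log2 ratio in ff and in GF was 1.06 and -0.12 for Sfrp1, a WNT inhibitor. It was -1.91 and 0.90 for Wif1, another WNT inhibitor, and 0.72 and -0.79 for Ccl11, a chemokine for eosinophils. For Wnt5a it was -0.40 and 0.27, and for the BMP inhibitor Grem1 0.17 and -0.22. Calr, a chaperone of class I loading, had -0.09 and 0.37, the complement inhibitor Serping1 0.17 and -0.14, and the matrix gene Fbln1 0.13 and -0.16.

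The Sfrp1 values differed within some clusters and not in another. In the Cxcl13 cluster Sfrp1 stood at 1046 CPM in ff members against 533 in the rest and at 505 against 541 in GF. In the Cd36 cluster it stood at 645 against 391 in ff and at 363 against 414 in GF, and in the Col6a5 cluster at 1567 against 1537 and at 1406 against 1541. The Col6a5 cluster held 26.8% of ff members and 4.51% of GF members. Ccl11 was higher in members of the 3 clusters in both libraries, as in the Cxcl13 cluster at 647 against 247 CPM in ff and at 515 against 249 in GF. The 3 clusters led by Wif1 and Sox6 held 4.03%, 0% and 5.37% of ff members and 7.79%, 0.820% and 1.23% of GF members. The part of cluster makeup in these ratios was not tested.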

How the results depend on the processing

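No paired analysis was possible because each group is 1 library with no replicate numbers, so leaving out replicates did not apply either. Of 580 values of named genes under alternatives, 487 stayed within their interval, 83 moved and 10 reversed. Of 168 list medians, 160 stayed, 7 moved and 1 reversed. The share of members was 0.385% in ff and 0.623% in GF at 2000 UMIs, and 0.921% and 1.23% when 2 Cxcl9 UMIs were asked for. In GF it was 1.87% under the stricter barcode filter and 2.18% among barcodes of 5000 to 20000 UMIs. Genes at least 2-fold higher and lower numbered 47 and 39 in ff and 79 and 80 in GF at a mean of 30 CPM. Without a minimum they numbered 332 and 537 in ff and 320 and 544 in GF. With the reference weighted to the clusters of the members, called clusters weighted below, they numbered 63 and 20 in ff and 118 and 19 in GF. Between GF and ff members they numbered 59 and 72 at 30 CPM, 864 and 951 without a minimum, and 164 and 224 with median-of-ratios scaling. The lowest cluster share in GF was 0.0360% at a resolution of 0.5. The class II median in ff was 1.0 among 5000 to 20000 UMIs, 1.10 without the clusters led by Cd74 and -2.10 against all other kept barcodes. In GF it was 1.0 without doublets, 0.49 with clusters weighted and -1.92 against all other kept barcodes. The median of lymphocyte chemokines in GF was 1.75 against all other kept barcodes and 1.67 with clusters weighted. With clusters weighted, log2 ratios reversed to 0.09 for Sfrp4, 0.45 for Ptn and 0.05 for Ebf1 in ff, and to 0.07 for Gas1 and 0.14 for Ebf1 in GF. Cd74 in ff was 0.13 with 2 Cxcl9 UMIs, 0.65 among 5000 to 20000 UMIs, 0.35 with clusters weighted and 0.78 without the clusters led by Cd74, and in GF -2.18 against all other kept barcodes. All other kept barcodes took in those with Ptprc or without collagen. Among them were 515 collagen-free GF barcodes with Cd79a, all with a Cd74 UMI. The causes were not tested.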

Other observations

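Some kept barcodes had Cxcl9 together with Ptprc and so were no members, 7 in ff and 13 in GF. They stood at 12016 and 8152 CPM of Cd74 and at 1006 and 348 CPM of Tyrobp, a signalling adaptor of myeloid cells. Cxcl12, which encodes the ligand of CXCR4 and is named in the title of the series, stood at 1356 CPM in ff members against 998 and at 1302 in GF members against 1040. Il33, an alarmin, stood at 22.8 against 67.3 and at 35.7 against 95.5 CPM.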
